A study of Drosophila melanogaster with 2 samples.

Results

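The Cpr genes of Drosophila melanogaster encode cuticle proteins, and the data describe where they lie relative to genomic regions bound by a tagged Gsc protein in embryos. Members were all protein-coding genes whose symbol is Cpr followed by a digit, which gave 70 of 13968 protein-coding genes on the 7 chromosome arms. Cpr itself, which is not a cuticle protein gene, was left out. Binding was mapped by chromatin immunoprecipitation and sequencing (ChIP-seq) with an antibody against GFP, in whole embryos aged 0 to 24 h from transgenic flies that carry a Gsc-eGFP fusion. There was 1 group with 2 biological replicates of 1 fly strain, and chromatin had been sonicated to 200 to 800 bp. No untagged embryos and no control library were analysed here, so no comparison between conditions was possible. The labels do not say in which cells the fusion is made. In whole embryos a site bound strongly in few cells and one bound weakly in many cannot be told apart.

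Insect cuticle is a layered coat of chitin fibres and proteins that the epidermis secretes and renews at each moult, and the foregut, hindgut and tracheae are lined with it as well. Most Cpr proteins carry the Rebers-Riddiford consensus, a chitin-binding domain, and their genes often lie side by side in tandem clusters. In the fly, embryos lay down the first larval cuticle late in embryogenesis. Gsc is the fly homologue of the homeodomain transcription factor Goosecoid and is expressed in the embryo in the foregut, among other places.

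Thresholded regions were nearest to a cuticle protein gene in 2 cases. A gene was called occupied when at least 1 region of the main thresholded list, made by the authors from both replicates, had its summit closer to a transcription start site (TSS) of that gene than to any other protein-coding TSS. By this measure 2 of the 70 Cpr genes were occupied (2.86%, 95% Wilson interval 0.787 to 9.83), against 8.06% of all protein-coding genes. The interval of the Cpr share includes the share of all genes. Such intervals cover counting error over genes only, and neighbouring genes are not independent. The occupied genes were Cpr76Ba and Cpr65Ec, both on arm 3L and each with a single region. Both regions were intergenic, and neither lay within 500 bp of a TSS. These 2 regions were 0.136% of the 1470 regions of the main list on the arms (95% Wilson interval 0.0373 to 0.495). The sequence nearer to a Cpr TSS than to any other was 0.253% of the arms, which lies within that interval.

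The sequences around the summits of both occupied genes and of Cpr97Ea, whose strongest region came next without reaching the thresholded list, are shown 100 bp to either side of the summit. They are read from the forward strand of the Release 6 assembly, the dm6 build, at chr3L:19516623-19516823, chr3L:7090971-7091171 and chr3R:27089223-27089423. Capitals mark ACAGTG on either strand, a word shown because earlier results on these lists had named it.
Cpr76Ba: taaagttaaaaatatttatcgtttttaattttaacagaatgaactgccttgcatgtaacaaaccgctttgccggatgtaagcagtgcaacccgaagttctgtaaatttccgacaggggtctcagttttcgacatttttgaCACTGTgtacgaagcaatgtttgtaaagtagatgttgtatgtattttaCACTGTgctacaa
Cpr65Ec: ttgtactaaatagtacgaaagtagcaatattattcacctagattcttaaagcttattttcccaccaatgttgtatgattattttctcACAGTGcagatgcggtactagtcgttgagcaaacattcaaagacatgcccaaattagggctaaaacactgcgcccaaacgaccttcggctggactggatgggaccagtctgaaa
Cpr97Ea: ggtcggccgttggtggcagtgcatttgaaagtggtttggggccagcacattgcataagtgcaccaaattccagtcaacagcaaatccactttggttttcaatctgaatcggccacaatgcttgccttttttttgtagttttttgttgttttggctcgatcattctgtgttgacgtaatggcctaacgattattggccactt

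ACAGTG occurred 2 times at Cpr76Ba and 1 time at Cpr65Ec, and the sequence at Cpr97Ea had no match. Because the word came from earlier results on these same lists, its matches are a description only. They cannot serve as evidence that the word sets bound regions apart from others. In windows of the same length ACAGTG was in 36 of the 377 ranked regions nearest to a Cpr gene (9.55%), against 8.31% of all ranked regions and 22.2% of the 1470 main-list regions. TAATCC, a word bound by homeodomains with a lysine in the recognition helix such as that of Gsc, was in neither bound region. It was in 27 of the 377 ranked regions of Cpr genes (7.16%), against 5.93% of all ranked regions and 6.33% of main-list regions. TAATTA, the core word of many other homeodomains, was also in neither bound region. It was in 11.1% of Cpr ranked regions, against 9.1% of all ranked regions and 13.9% of main-list regions. TAAT, which TAATCC and TAATTA both contain, had 1 match at Cpr76Ba, 3 at Cpr65Ec and 2 at Cpr97Ea. At least 1 was in 72.4% of Cpr ranked regions, against 72% of all ranked regions and 87.9% of main-list regions. Both strands were searched for every word. A match describes the sequence and does not show a binding site. The GC content of the windows was 35.8% at Cpr76Ba, 40.8% at Cpr65Ec and 44.3% at Cpr97Ea. The median was 48.8% over the Cpr ranked regions, 47.3% over all ranked regions and 36.8% over the main list.

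Cpr76Ba (FBgn0036878, 3L, 19517552 to 19518332, minus strand) had the strongest region of the family. The region spanned 19516683 to 19516784, and its summit was 1609 bp downstream of the TSS and 829 bp beyond the 3' end of the gene. Its signal value, the authors' own measure per region on a scale not given in the sources used here, was 162 in the main list, where it ranked 356 of 1470. The main-list entry was only 102 bp wide, while 376 of the 377 ranked regions of Cpr genes were 336 bp wide. In the replicates' own ranked lists the signal was 106 in replicate 1 and 66.0 in replicate 2, or 85.8 ± 28.0 (SD, n = 2). These values lay above 99% of each list, at rank 305 of 102347 regions in replicate 1 and rank 481 of 97341 in replicate 2. The summits lay 1 bp and 22 bp from that of the main list. The region was also in the thresholded lists of both replicates and in the conservative list, the stricter of the authors' lists from both replicates. Cpr76Ba was 1 of 70 Cpr genes occupied by the conservative list, against 7.67% of all protein-coding genes. By the thresholded list of replicate 2 it was again 1 of 70, against 5% of all protein-coding genes.

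Cpr65Ec (FBgn0035737, 3L, 7093204 to 7093841, plus strand) had a weaker region with less support. It spanned 7090903 to 7091238, with the summit 2133 bp upstream of the TSS, between Cpr65Eb and Cpr65Ec. The TSS of Cpr65Eb was 2284 bp away, nearly as close, and these genes are transcribed away from each other. The signal was 70.7 in the main list, at rank 1127 of 1470. It was 49.6 in replicate 1 and 22.6 in replicate 2, or 36.1 ± 19.1 (SD, n = 2). The value in replicate 1 was at rank 1017 of its ranked list and that in replicate 2 at rank 9184. The region was in the thresholded list of replicate 1 and was absent from that of replicate 2 and from the conservative list. By the list of replicate 1, 2 of 70 Cpr genes were occupied, against 6.28% of all protein-coding genes. In both occupied genes replicate 1 gave the higher signal, with log2 ratios of replicate 2 to replicate 1 of -0.68 and -1.14.

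**Figure D1:**
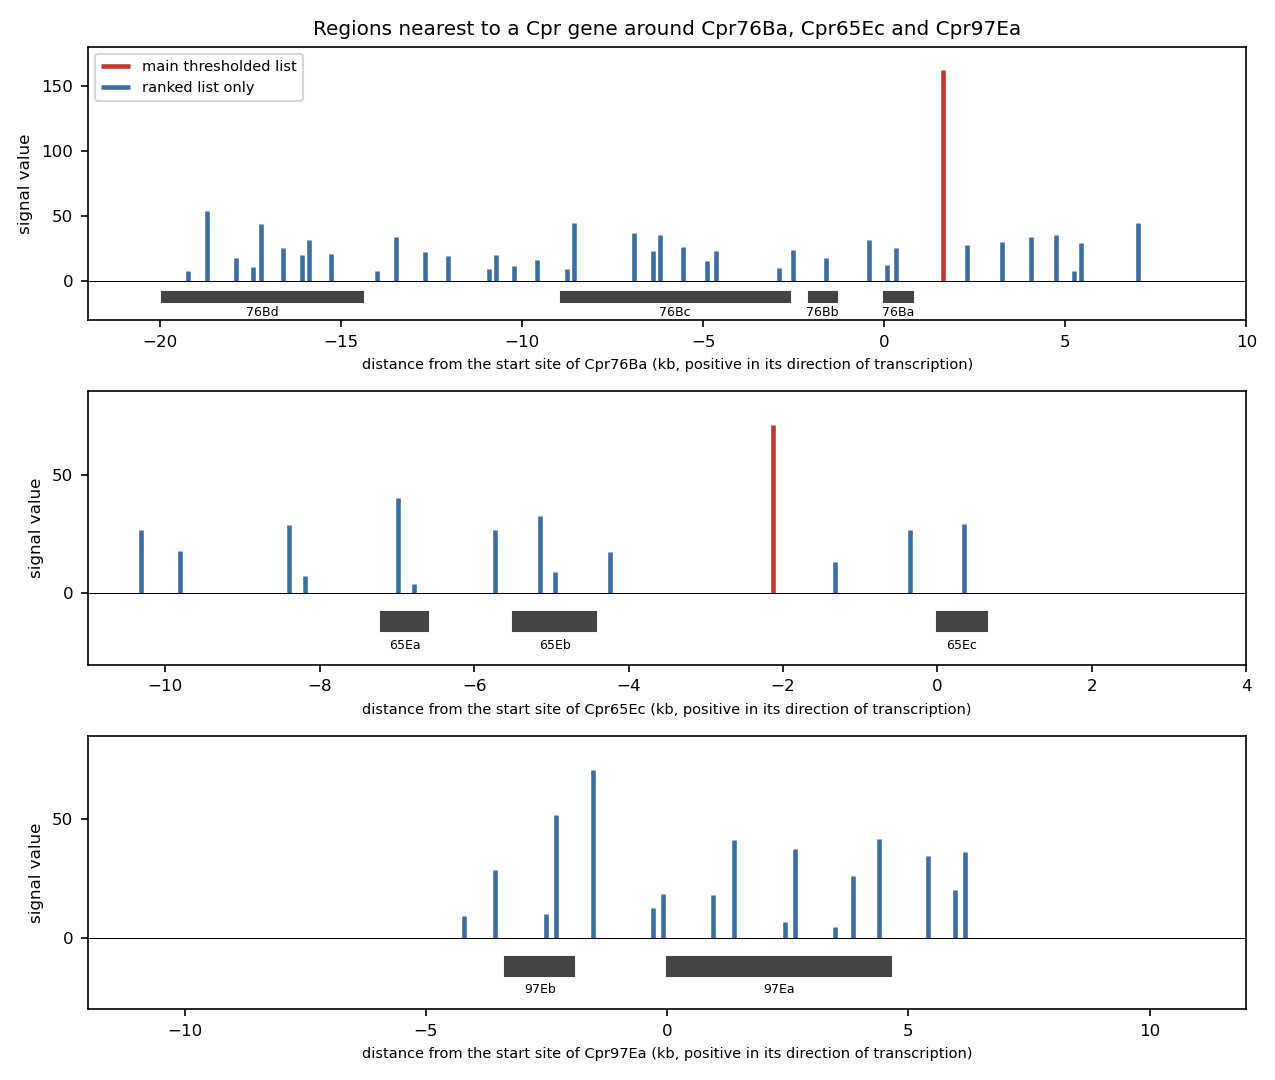
Signal value of ranked regions nearest to a Cpr gene against distance in kb from the TSS of Cpr76Ba, Cpr65Ec and Cpr97Ea, with only Cpr genes drawn, as bars under the axis. The main-list regions stand 1609 bp downstream of the TSS of Cpr76Ba at 162 and 2133 bp upstream of that of Cpr65Ec at 70.7, and the highest line at Cpr97Ea reaches 70.6.

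The main list was thresholded on the irreproducible discovery rate (IDR), a measure of how alike a pair of rankings place a region, and Cpr97Ea lay just outside it. Which rankings the authors compared for the main list is not given in the sources used here, so its score may not measure reproducibility between the replicates. Its strongest region (3R, 27089155 to 27089490) had a signal of 70.6, nearly that of Cpr65Ec, with a summit 1545 bp upstream of the TSS and beyond the 3' end of Cpr97Eb. The scaled reproducibility score was 774, against 981 at Cpr65Ec and a lowest score of 830 in the main list. The replicates gave 27.8 and 35.3, or 31.6 ± 5.23 (SD, n = 2). Their difference was smaller than at Cpr65Ec. None of the 375 other ranked regions of Cpr genes reached the score of 830.

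The ranked list contains every region the authors ordered by reproducibility, most of them weak. In it 377 regions were nearest to a Cpr gene, and 57 of the 70 genes had at least 1 (81.4%, 70.8 to 88.8), against 66.3% of all protein-coding genes, which is below the interval of the Cpr share. Stretches of over 10 kb without any ranked summit held the starts of 27.1% of Cpr genes and 42.3% of all protein-coding genes. Among genes that start outside them, 51 of 51 Cpr genes had a ranked region (100%, 93.0 to 100), against 95.3% of all such protein-coding genes. The stretches are gaps between summits of this same list, so high shares outside them follow largely from how they are defined. No conclusion is drawn from these shares. Whether a filter on the list made these stretches was not tested. Regions below the authors' threshold are candidates and not bound sites. The median signal was 21.8 over Cpr regions (quartiles 12.5 and 32.0) and 19.9 over all ranked regions (11.7 and 29.4). Taking the strongest region of each gene, the median was 41.4 for the 57 Cpr genes (32.6 and 47.2) and 39.9 for the 9259 genes with a ranked region (29.8 and 51.1). For Cpr genes these values ran from 15.6 at Cpr65Ax1 to 162 at Cpr76Ba. A region among the strongest 10% of the ranked list was found at 32 Cpr genes (45.7%, 34.6 to 57.3), against 34.4% of all protein-coding genes. For the strongest 5% it was 18 Cpr genes (25.7%, 16.9 to 37.0), against 23.4%. These shares are over all genes, with or without a ranked region. Counted by region, 44 of the 377 Cpr regions (11.7%) were among the strongest 10% and 18 (4.8%) among the strongest 5%, near the shares of the whole list.

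**Figure D2:**
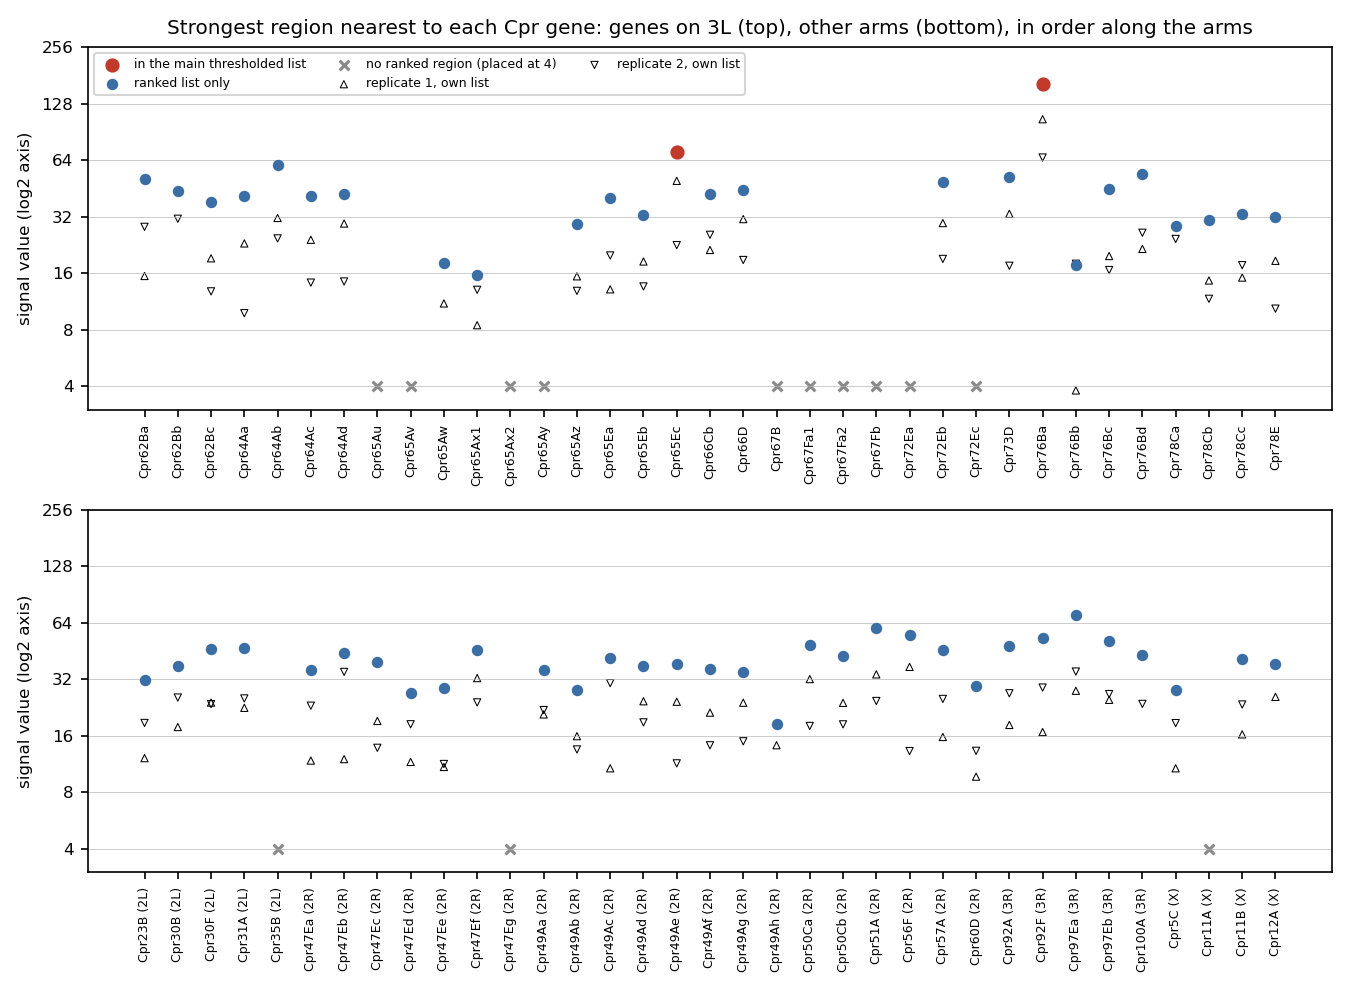
Signal value (log2 axis) of the strongest region nearest to each of the 70 Cpr genes, with the values of that region in each replicate's own list as open triangles. The 2 genes of the main list stand at 162 and 70.7, the other 55 with a ranked region lie between 15.6 and 70.6, and crosses mark the 13 genes without one.

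After Cpr97Ea, the strongest regions outside the main list were those of Cpr51A, Cpr64Ab and Cpr56F. Cpr51A (2R, region 14518233 to 14518568) had a signal of 60.3, 3190 bp upstream of the TSS, with 34.1 in replicate 1 and 24.6 in replicate 2. Cpr64Ab (3L, 4211025 to 4211360) had 60.2 inside the gene, 347 bp from the TSS, with 31.5 and 24.5 in replicates 1 and 2. Cpr56F (2R, 20294869 to 20295204) had 55.2, 3092 bp upstream, and its replicates were further apart at 37.3 and 13.3. The next were Cpr76Bd at 53.7, Cpr92F at 53.2, Cpr73D at 52.0, Cpr97Eb at 51.5, Cpr62Ba at 50.5 and Cpr72Eb at 49.1. The strongest regions of Cpr76Bd, Cpr92F, Cpr97Eb and Cpr72Eb had their summits in coding sequence. Cpr50Ca and Cpr50Cb had most ranked regions, 20 each, with strongest signals of 48.8 and 42.9, and Cpr76Bd and Cpr12A had 18 each. A gene had 4 ranked regions in the median.

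The replicates ranked the candidate regions of Cpr genes only loosely alike. Of the 377, 258 overlapped a region in both replicates' ranked lists, and Spearman's rho over these was 0.238, a description across regions that share their libraries. Some neighbouring regions overlapped and were tied to the same replicate regions, so the 258 pairs of values are not all distinct. Over every 20th region of the whole ranked list rho was 0.211 (3738 regions with both values). For the strongest region of each gene rho was 0.139 over the 51 genes with both values, and 8 of these differed more than 2-fold. Cpr76Bb had the widest difference, with 3.79 in replicate 1 and 17.9 in replicate 2. Over the 258 regions, replicate 2 differed from replicate 1 by -0.0041 on the log2 scale in the median, and single regions scattered around this with an SD of 0.935.

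**Figure D3:**
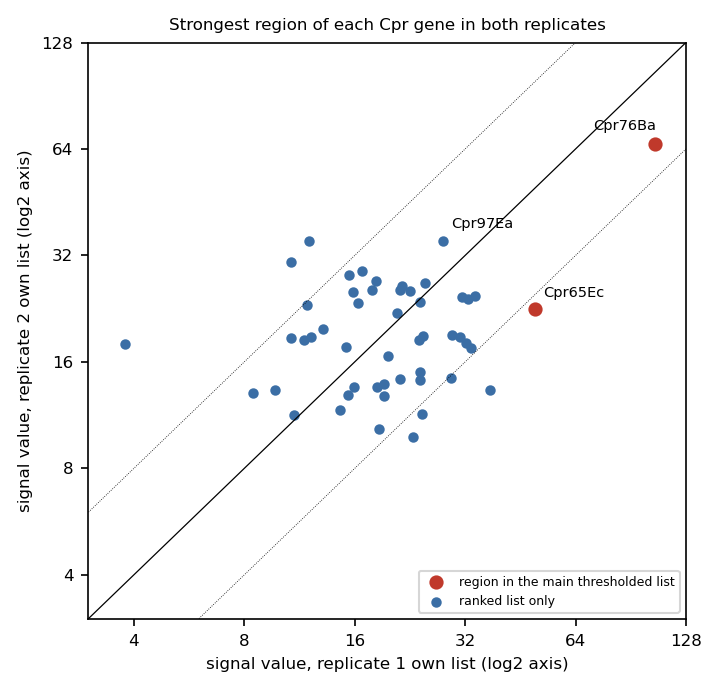
Signal value of the strongest region of 51 Cpr genes in replicate 1 (x axis) against replicate 2 (y axis), both on log2 axes, with the line of equality and dotted lines at a 2-fold difference. Cpr76Ba and Cpr65Ec lie to the right of the other genes, and the rest spread widely around the line (rho 0.139 over all 51).

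The median distance from ranked summit to TSS was 1586 bp for Cpr genes and 5230 bp for all ranked regions. This distance is bounded by the spacing of TSSs, which is closer around Cpr genes. Of the 377 summits, 88 (23.3%) lay within 500 bp of a TSS, against 8.75% of all ranked regions. Of the sequence nearest to the TSSs, 21.2% lay within 500 bp of one for Cpr genes and 11.2% for all protein-coding genes. The share of summits was thus above that of sequence for Cpr genes and below it for all ranked regions. Neither difference was tested. Outside those windows 143 were intergenic, 70 in coding sequence, 62 in introns, 11 in a 3' UTR and 3 in a 5' UTR. Summits were upstream of the TSS in 172 regions and downstream in 205. The strongest region of a gene was downstream of the TSS in 39 genes and upstream in 18, with a median distance of 802 bp. In 138 regions (36.6%) the summit was inside the Cpr gene itself. For these classes, sides and positions no shares over all ranked regions or all genes are given here. Whether they are particular to Cpr genes therefore cannot be read from them.

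Cpr genes are short and lie close together. Their median length was 1094 bp, against 2164 bp for all protein-coding genes. The sequence nearer to their TSSs than to any other came to 0.348 Mb, or 0.253% of the arms, with a median of 3364 bp per Cpr gene and 4333 bp per protein-coding gene. Main-list regions numbered 5.75 per Mb of this sequence for Cpr genes and 10.7 per Mb of the arms. That rate rests on 2 regions. Ranked regions numbered 1083 per Mb for Cpr genes and 855 per Mb of the arms.

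Within 20 kb of a Cpr TSS there were 17 main-list regions, and 15 of them were nearest to another gene, with 2 overlapping entries at Spn31A among them. The closest of these was 2093 bp from the TSS of Cpr78Cc and belonged to CG11309, with a signal of 66.0. Another at CG11309, 69 bp from its TSS, had 120 and lay 4009 bp from Cpr78Cc. On the other side of that cluster a region 80 bp from the TSS of CG12974 had 191 and lay 6918 bp from Cpr78Ca. Pen, an importin alpha gene, had a region of 120 at 3199 bp from Cpr31A. The strongest was at aay, a phosphoserine phosphatase gene, with 345 (170 ± 18.9 in the replicates, SD, n = 2), 18259 bp from Cpr67B. The next was near CG46460, with 313, and lay 12999 bp from Cpr64Ad. Cpr genes with a main-list summit within 2 kb of a TSS, nearest or not, numbered 1 of 70 (1.43%, 0.253 to 7.66), against 8.25% of all protein-coding genes. Within 5 kb they were 8 (11.43%, 5.906 to 20.96), against 13.99%. There were 10 within 10 kb (14.29%, 7.949 to 24.34), against 22.85%. Within 20 kb they were 21 (30.0%, 20.5 to 41.5), against 37.4%. At 5, 10 and 20 kb the interval of the Cpr share includes the share of all genes. The share at 2 kb, whose interval does not, rests on 1 gene. The median distance from a Cpr TSS to the closest main-list summit was 32.8 kb, against 31.7 kb for all protein-coding genes.

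Arm 3L held 35 Cpr genes, 2R 21, 2L and 3R 5 each and X 4. With clusters defined as at least 3 Cpr genes with gaps of at most 50 kb, 45 genes fell into 10 clusters and 25 stood alone or in pairs. The largest were those of Cpr49Aa to Cpr49Ah (8 genes over 38.5 kb of 2R), Cpr47Ea to Cpr47Eg (7 genes over 26.7 kb of 2R) and Cpr65Au to Cpr65Az (7 genes over 30.3 kb of 3L). A main-list summit lay within 1 of the 10 cluster spans, that of Cpr65Ea to Cpr65Ec. The region of Cpr76Ba was just outside its own cluster of 4 genes, at the end marked by Cpr76Ba. Main-list regions lay inside or within 20 kb of 6 clusters. They were nearest to a Cpr gene at the Cpr65E and Cpr76B clusters and to other genes at the Cpr47E, Cpr62B, Cpr64A and Cpr78C clusters. The clusters of Cpr49A, Cpr65A, Cpr67F and Cpr72E had none.

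The clusters differed in ranked regions. The Cpr76B cluster had 31 in 20.7 kb (1495 per Mb), that of Cpr64A 12 in 8.58 kb (1399 per Mb) and that of Cpr49A 52 in 38.5 kb (1349 per Mb). The Cpr65A cluster, which also contains 10 Lcp65A and Acp65A genes for other larval and adult cuticle proteins, had 10 in 30.3 kb (330 per Mb), none above a signal of 22.4. The 3 Cpr67F genes had none. With so few regions per cluster these rates were not tested against each other.

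**Figure D4:**
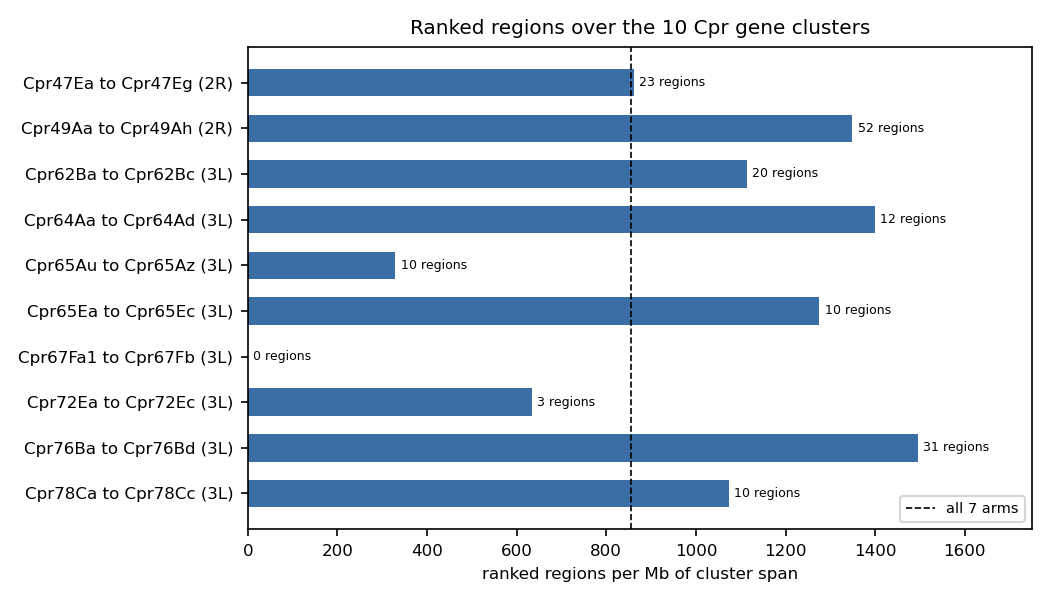
Ranked regions per Mb of span for the 10 Cpr clusters, with the number of regions beside each bar and the rate over the 7 arms (855 per Mb) as a dashed line. The Cpr67F cluster has 0 regions and the Cpr65A cluster 330 per Mb, and the Cpr76B cluster has the highest rate at 1495 per Mb.

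The 13 Cpr genes without a ranked region were Cpr35B, Cpr47Eg, Cpr65Au, Cpr65Av, Cpr65Ax2, Cpr65Ay, Cpr67B, Cpr67Fa1, Cpr67Fa2, Cpr67Fb, Cpr72Ea, Cpr72Ec and Cpr11A. All 13 start in a stretch of over 10 kb without any ranked summit, from 13.4 kb at Cpr65Ax2 and Cpr65Ay to 64.7 kb at the Cpr67F genes. The stretches and the lack of a ranked region are read from the same summits, so this overlap is not a separate result. Such stretches made up 34.1% of the arms. They held the start of 19 Cpr genes, with an interval of 18.1 to 38.5% on this share. In each replicate's own ranked list the figures were 15 Cpr genes (21.4%), against 35.7% of all genes in replicate 1 and 38.5% in replicate 2. Of the 13 genes, 9 had no region in either replicate's own list either. How the stretches arose is not given in the sources used here, and a gene inside one is not shown to be free of Gsc.

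Some Cpr genes hold sequence that recurs in the assembly, and how reads that map to several places were treated is not given in the sources used here. Repeats were counted over the whole assembly, so the other copies need not lie in Cpr genes. Of the 31-base words of Cpr65Ax1 and Cpr65Ax2, 100% occur more than once in the assembly. For Cpr73D the share was 48.9%, for Cpr67Fa1 13.2% and for Cpr67Fa2 11.6%. The median was 0% both for the 13 genes without a ranked region and for the 57 with one. Values at these 5 genes are uncertain for that reason.

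Other genes of the cuticle pathway were taken from lists chosen beside the Cpr genes. Of 28 other genes for proteins of the Lcp, Acp, Ccp and related families none was occupied, which allows a share of up to 10.7%, and of 26 Tweedle genes, another family of cuticle structural proteins, none, which allows up to 11.5%. Both limits lie above the 8.06% of all protein-coding genes, and these counts are too small to be ordered against the 2 of 70 Cpr genes. Among 21 genes of chitin synthesis and turnover 1 was occupied (4.76%, 0.846 to 22.7, against 8.06% of all protein-coding genes), Cht7, a chitinase gene. Its region (3L, 3106958 to 3107293) was 168 bp upstream of the TSS, with 132 in the main list and 64.6 ± 18.9 in the replicates (SD, n = 2). Among 15 genes of tanning and pigmentation found of 17 listed, 1 was occupied (6.67%, 1.19 to 29.8, against the same 8.06%), t, which encodes the enzyme Tan, with 97.4 at a site 2578 bp from the TSS. Among 16 regulators of cuticle genes 4 were occupied (25%, 10.2 to 49.5), against 8.06% of all protein-coding genes. They were the nuclear receptor gene Hr4 (7 regions, the strongest at 260.3), grh, the Grainyhead gene for a regulator of epidermal barrier genes (175), the ecdysone-induced gene Eip93F (75.4) and ovo, which governs denticle formation (70.3). The region of grh gave 88.0 ± 4.56 in the replicates (SD, n = 2). The sequence nearest to their TSSs came to 0.348 Mb for the 70 Cpr genes and 0.680 Mb for the 16 regulators. Per Mb of it, main-list regions numbered 5.75 for Cpr genes and 14.7 for the regulators, beside 10.7 per Mb of the arms. Of the 10 regions of the regulators, 7 were those of Hr4. The shares of occupied genes do not allow for the length of this sequence. The lists were chosen with earlier results of these data known, so the 25% of regulators is a description only. These lists were not tested against each other.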

How the data were processed

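ChIP-seq regions from 2 biological replicates were used as deposited, on the dm6 build per the labels. The authors' lists were ordered and thresholded by IDR. Each region has a deposited signal value and a deposited score (scaled IDR, at most 1000), both used as they stand, while aligner, region caller and signal scale were not given in the sources used here. Read depth is unknown. The deposited lists were a main and a conservative list from both replicates and 1 list per replicate, each ranked and thresholded. The pair of ranked lists from both replicates holds 16 further columns in all, without names, which were not used.

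Summits were assigned to the nearest start site of an Ensembl release 115 protein-coding gene on 7 arms, whose lengths matched Release 6 of the genome. Replicate values came from the longest overlap in each replicate's own ranked list. Shares have 95% Wilson intervals, for counting error only, and a share of 0 has a limit of 3 counts. Python 3.11.15, numpy 2.4.6, pandas 2.3.3 and scipy 1.17.1 were used, and the assignment was tested on simulated regions. Named genes were all occupied genes, the 10 unoccupied Cpr genes with the strongest ranked region, up to 4 with most ranked regions, and the largest clusters. Other genes named were chosen after their values were seen. The members and lists were chosen with earlier results of these data known. Alternatives covered the list, the strength, the assignment rule, the annotation, the replicate left out and the cluster gap. With 1 group no comparison between groups could be made, and no test was run.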

Additional observations from a re-analysis of the deposited data

How the results depend on the processing

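The number of occupied Cpr genes and of their main-list regions, 2 each, moved to 1 with the conservative list and with the stronger 735 regions of the main list, which hold only the Cpr76Ba region. The share of all protein-coding genes was 7.67% with the conservative list and 4.53% with the stronger regions, against 8.06% with the main list. Leaving out a replicate gave 1 to 2 for both counts, against 5% to 6.28% of all protein-coding genes. Requiring a summit within 2 kb of a TSS left 1 gene, against 8.25% of all protein-coding genes. Counting summits in the gene or within 5 kb upstream gave 5 genes, Cpr65Ea, Cpr65Eb, Cpr65Ec, Cpr76Bb and Cpr76Bc, against 12.5% of all protein-coding genes, and no longer counted Cpr76Ba. The median signal of 116.6 moved to 162 and the median distance of 1871 bp to 1609 bp with the conservative list and the stronger part of the main list, as 1 region was left. Leaving out a replicate gave 66.0 to 77.6 for the signal, on that replicate's own scale, and 1587 to 1874 bp for the distance. Regions per Mb moved from 5.75 to 2.87 with the conservative list and the stronger part, and to 2.87 to 5.75 with a replicate left out. Cpr genes with a ranked region went down from 57 to 32 with the strongest 10% of the list, against 34.4% of all protein-coding genes. The other 21 values under alternatives stayed within 1.5 times the reported count or rate, or within 1 SD of the reported value. Among them, Cpr genes with a ranked region numbered 55 with the start sites of all genes, against 63.0% of all protein-coding genes. They numbered 59 with the conservative ranking, against 65.9%. Without replicate 1 they were 59, against 67.9%, and without replicate 2 they were 61, against 70.1%. Regions per Mb were 6.62 with all start sites. The replicates' log2 ratio (2 over 1) went in the median from -0.91 to -1.14 with a reciprocal overlap of 50%, which left only Cpr65Ec. The clusters numbered 10 with gaps of 20 kb and 100 kb. No paired analysis was possible because there was 1 group. With 2 replicates, no control library analysed here and unknown depth, a gene without a region is not shown to be unbound.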
